A study of Mus musculus with 12 samples.

Results

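Of 7460 distinct m6A peaks in mouse liver, 661 (8.86%) had no line labelled mRNA in the column of the deposited table that gives an RNA type for each peak and gene. These 661 peaks are described here. The table lists a peak once for each gene annotated to it, and the 661 peaks took up 710 of its 8649 lines. N6-methyladenosine (m6A) is a methyl mark on adenosines of RNA, and a peak is a region where fragments bound by the m6A antibody in the immunoprecipitation (IP) piled up. The study set livers made fibrotic by BDL, the ligation of the bile duct that stops bile from leaving the liver, against livers of normal mice. All mice were male C57BL/6 aged 12 weeks, and the time after ligation is not given in the sources used here. By the labels there were 12 samples, with 3 IP and 3 input samples in BDL and as many of each in control. The values used here came from the 6 IP libraries, and the inputs were not analysed here. Transcript abundance and methylation therefore cannot be told apart in the IP reads. In whole liver, fewer cells of a type and less RNA per cell cannot be told apart either. The labels do not say that each sample is a separate mouse, so p-values cover only the spread among these libraries, which may be technical.

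The working name for such peaks, peaks of non-coding RNA genes, did not hold for these data. Of the 710 lines, 433 were labelled nonsense_mediated_decay (NMD), 257 processed_transcript, 18 antisense and 2 polymorphic_pseudogene. The 32 peaks with a lincRNA line and the 2 with a sense_intronic line also had an mRNA line, so 0 of them are among the 661. By RefSeq, 503 of the 534 gene identifiers were protein coding, 3 were transcribed pseudogenes, 2 were long non-coding RNAs and 26 were not matched. At least 1 protein-coding gene was annotated to 655 of the 661 peaks. Of 123 long non-coding and small RNA names listed for the liver and for general functions, Neat1, Malat1, Gas5 and the miRNA host genes included, 2 had a peak of any kind (Tug1 and 2810459M11Rik), and both of those peaks carried an mRNA label. The peaks are therefore called peaks with no mRNA label, and they are for the most part peaks of protein-coding genes that were assigned to a transcript with a non-coding label.

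NMD is the pathway that degrades transcripts whose stop codon is followed by a splice junction. A gene that encodes a protein often also makes such a transcript through alternative splicing, and annotation labels that transcript NMD. A processed transcript is a transcript without an annotated open reading frame, and a coding gene can have one among its transcripts. An antisense transcript runs on the strand opposite to another gene. In mRNA, m6A is deposited by the Mettl3 and Mettl14 complex and is most dense near the stop codon and in the 3' part of the transcript. Short RNA fragments cannot by themselves be assigned to 1 isoform where isoforms share exons, so a label of this kind names an annotation that covers the peak and not necessarily the RNA that was methylated.

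The promoters of Crp, Mbl1 and Ifngr1 are printed because their peaks were among the 10 read most and passed the test of BDL against control with each library left out. Each window covers 250 bases before to 50 bases after the annotated start and was taken from RefSeq. The sequence of the peaks themselves was not used here. Capitals mark TATAAA or CCAAT on either strand, and neither motif overlapped the other.
Crp (GRCm38.p6, chr1:172697806-172698105, + strand): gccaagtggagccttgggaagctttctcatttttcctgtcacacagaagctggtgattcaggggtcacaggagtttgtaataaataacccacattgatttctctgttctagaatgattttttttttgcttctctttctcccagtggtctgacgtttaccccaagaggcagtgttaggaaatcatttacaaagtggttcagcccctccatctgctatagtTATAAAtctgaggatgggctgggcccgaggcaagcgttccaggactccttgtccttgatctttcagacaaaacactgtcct
Mbl1 (GRCm38.p6, chr14:41151206-41151505, + strand): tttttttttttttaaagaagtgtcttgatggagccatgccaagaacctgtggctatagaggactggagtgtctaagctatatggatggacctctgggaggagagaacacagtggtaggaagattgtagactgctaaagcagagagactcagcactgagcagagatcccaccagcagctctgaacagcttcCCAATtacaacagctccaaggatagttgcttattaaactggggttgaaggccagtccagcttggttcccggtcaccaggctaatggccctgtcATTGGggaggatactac
Ifngr1 (GRCm38.p6, chr10:19591699-19591998, + strand): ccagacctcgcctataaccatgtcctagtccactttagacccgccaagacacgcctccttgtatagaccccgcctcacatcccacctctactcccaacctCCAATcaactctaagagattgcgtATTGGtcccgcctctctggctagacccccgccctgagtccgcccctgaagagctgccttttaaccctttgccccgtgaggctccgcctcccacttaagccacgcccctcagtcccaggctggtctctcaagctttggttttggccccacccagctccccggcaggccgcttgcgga
The Crp window held 1 TATAAA, 31 bases before the start. The Mbl1 and Ifngr1 windows held 2 CCAAT each. TATAAA was present in 14.2% of 27025 promoter windows of the mouse, and in 5.96% of the 403 windows matched among 517 gene symbols of the 661 peaks. CCAAT was present in 38.0% of all windows and in 40.0% of those of the 661 peaks. The windows of the mouse include genes with no peak here. Genes with an mRNA-labelled peak were not counted apart, so these shares do not tell the 661 peaks from other peaks. A match is a description of the letters and not a bound site.

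The 661 peaks had a median width of 175 bases (quartiles 150 and 200), and peaks with an mRNA label had the same median (quartiles 125 and 200). Peaks of 75 bases or less made up 13.6%, against 17.1% of the 6799 peaks with an mRNA label. Their median level was 31.0 CPM, against 25.6 CPM for peaks with an mRNA label. CPM here are read counts scaled to the library's reads in tested peaks with TMM factors, averaged over the 6 libraries. Among peaks of a single gene, 58.7% of those with no mRNA label lay in the last of 5 equal bins of the listed gene span, against 65.0% of those with an mRNA label. In the second bin the shares were 10.2% and 5.46%. Processed transcript peaks were spread more widely than NMD peaks, with 54.2% and 61.0% in the last bin. Exon and untranslated region annotation was not used, so place is given along the gene span alone.

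**Figure D1:**
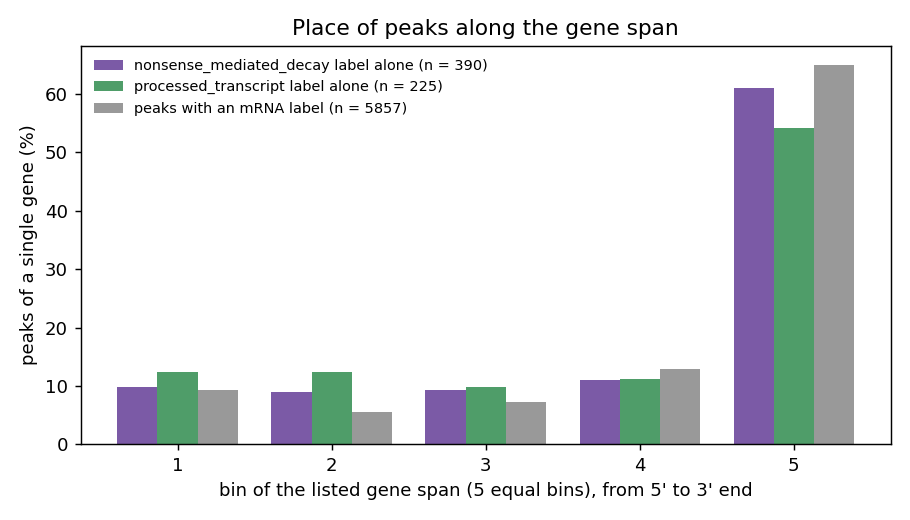
Percent of single-gene peaks (vertical axis) in each of 5 equal bins of the listed gene span from the 5' to the 3' end (horizontal axis), for peaks labelled NMD alone, processed transcript alone, or mRNA. The last bin holds 61.0%, 54.2% and 65.0% of the 3 kinds, and the second 8.97%, 12.4% and 5.46%.

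By label, 399 peaks were NMD alone, 234 processed transcript alone, 8 carried both labels, 12 were antisense with NMD, 4 antisense with processed transcript, 2 carried those 3 labels together, and 2 were polymorphic pseudogene. Levels were spread wider in processed transcript peaks, whose 90th percentile was 360 CPM, against 165 CPM in NMD peaks and 205 CPM in peaks with an mRNA label. Single-gene peaks came from 471 genes, of which 106 had 2 or more. Vps18, a subunit of endosomal tethering complexes, had 5, and Dclre1a, Dlg3, Pigk, Ppp1r15b, Rps6kc1, Son and Zfp518a had 4 each. The 5 Vps18 peaks averaged between 5.68 and 76.8 CPM over the 6 libraries, and 0 of them passed the test.

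BDL and control IP libraries were compared with edgeR's quasi-likelihood test, fitted on 7083 peaks with enough reads, with Benjamini-Hochberg adjustment over all of them and a threshold of 0.05. Of the 661 peaks, 631 were tested, and 59 passed, 28 higher and 31 lower in BDL. This is 9.35% of those tested, and 9.16% of all tested peaks passed (4.62% higher and 4.55% lower). The share that passed was therefore near that of all peaks and is not a result about peaks with no mRNA label. The median log2 change was 0.10, against 0.05 over all tested peaks. BDL and control values did not overlap in 236 peaks (37.4%), and in 37.4% of all tested peaks. Of 378 tested NMD peaks, 20 were higher and 18 lower, and of 226 tested processed transcript peaks 6 were higher and 13 lower. With library totals in place of TMM scaling, 61 of the 631 were higher and 17 lower (over all tested peaks 8.58% and 2.44%). The median log2 change of the 631 was then 0.43. All 28 higher calls and 17 of the 31 lower calls stood with library totals. Directions are therefore relative to the TMM scaling. By DESeq2 110 passed, the 59 among them, and 16.6% of all peaks it tested. Of the 59, 11 passed in each of the 6 fits that left out 1 library, and 5 passed in none of them. The balance of directions was not stable either. There were 3 higher and 10 lower calls without BDL replicate 2, against 73 and 82 over all tested peaks. Without BDL replicate 3 there were 5 higher and 9 lower, against 78 and 92 over all. Without control replicate 2 there were 22 higher and 12 lower, against 234 and 128 over all, so 64.7% and 64.6% of the calls were higher.

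**Figure D2:**
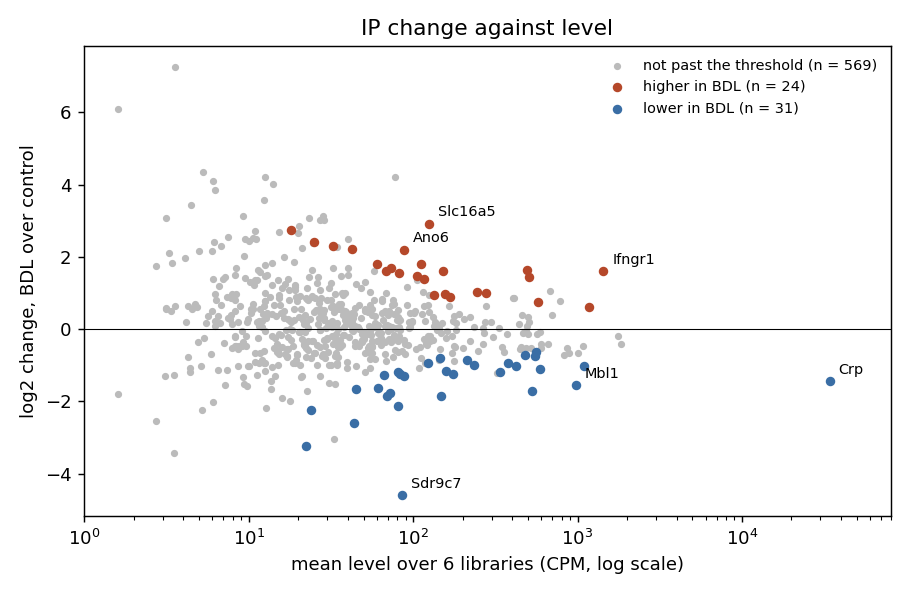
Log2 change of BDL over control (vertical axis) against mean level in CPM (horizontal axis, log scale) for 624 tested peaks with no mRNA label and with reads in both groups. The 24 higher and 31 lower peaks past the threshold are coloured, and the Crp peak stands to the right of all others at a log2 change of -1.43.

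Peaks of 3 genes for proteins that hepatocytes secrete into plasma, Crp, Mbl1 and Igfals, were lower in BDL. Crp, the C-reactive protein gene, whose product binds phosphocholine on microbes and dying cells, had the most reads of the 661. Its peak at chr1:172698643-172699092, labelled processed transcript, held 18500, 19300 and 17500 CPM in BDL libraries, against 50600, 49200 and 49300 CPM in control libraries. The libraries of each group lay within a narrow range, and the groups were far apart. The log2 change was -1.43 (SE 0.13, adjusted p = 0.00125), and the highest adjusted p with a library left out was 0.0174. The table lists a Crp span of 134977 bases with the peak at 0.602% of it. A second Crp peak of 50 bases had reads in 1 library of each group and was not tested. Mbl1, a mannose-binding lectin that starts the lectin pathway of complement, had an NMD-labelled peak at chr14:41158707-41158906. It held 579, 474 and 429 CPM in BDL livers, against 1490, 1480 and 1390 CPM in control livers. Each control value was above each BDL value, and the log2 change was -1.56 (SE 0.16, adjusted p = 0.00198). Igfals encodes the acid-labile subunit that holds insulin-like growth factors in a circulating complex. Its processed transcript peak held 55.7, 88.2 and 50 CPM in BDL, against 138, 315 and 245 CPM in control. The groups did not overlap (log2 change -1.85, SE 0.35, adjusted p = 0.0212), but the call was lost without BDL replicate 1, BDL replicate 3 or control replicate 2, with an adjusted p of up to 0.0962.

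Hepatocyte marker genes also had a lower summed level in BDL. Of 10 listed markers 6 had peaks, all with an mRNA label, and their summed level was 9240 to 12500 CPM in BDL, against 14900 to 18500 CPM in control. Of their 17 tested peaks 4 were lower and 0 higher, against 4.55% lower and 4.62% higher over all tested peaks. Serpina1a, Cps1, Tf and Ass1 had no peak. The part of these levels in the changes above was not tested.

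Peaks of genes for liver enzymes, channels and receptors were also among the lower ones. Sdr9c7, a short-chain dehydrogenase/reductase, had the lowest log2 change of all those past the threshold, at -4.59 (SE 0.46, adjusted p = 0.00191). Its peak at chr10:127909969-127910168 held 4.8, 6.5 and 9.17 CPM in BDL, against 112, 261 and 119 CPM in control. The call stood with each library left out, with an adjusted p of up to 0.021. Ttpal, a relative of the tocopherol transfer protein, held 33.9, 30.0 and 34.9 CPM in BDL at 1 of its 3 NMD peaks, against 130, 98.3 and 106 CPM in control (log2 change -1.76, SE 0.24, adjusted p = 0.00604). This peak too passed with each library left out, and the other 2 Ttpal peaks, with log2 changes of 0.44 and -0.36, did not pass (adjusted p = 0.741 and 0.565). Lifr encodes the receptor of leukaemia inhibitory factor, a cytokine of the interleukin 6 family, and held 14, 34.5 and 42.7 CPM in BDL, against 81.5, 154 and 91.2 CPM in control. Its log2 change of -1.84 (SE 0.46, adjusted p = 0.0454) passed in none of the 6 fits with a library left out, which reached an adjusted p of 0.129, and had an adjusted p of 0.08 with library totals. Aqp9, the glycerol channel of hepatocytes, Amacr, a peroxisomal racemase used in bile acid synthesis, and Prdx6, an antioxidant peroxiredoxin, are named after their values were seen. Aqp9 averaged 205 ± 68.7 CPM in BDL and 470 ± 64.5 CPM in control (log2 change -1.20), and Amacr 98.4 ± 17.4 CPM in BDL and 220 ± 3.96 CPM in control (log2 change -1.16). A further Aqp9 peak had a log2 change of -0.55 and did not pass. Prdx6 averaged 258 ± 51.4 CPM in BDL and 495 ± 71.5 CPM in control (log2 change -0.94; SD, n = 3 each, here and below). Leaving out 1 library raised the adjusted p to as much as 0.113 for Aqp9, 0.0626 for Amacr and 0.106 for Prdx6, which were 0.0318, 0.0132 and 0.0297 with all 6. Amacr lost its call without BDL replicate 3, and Aqp9 and Prdx6 without BDL replicate 2, BDL replicate 3 or control replicate 2, Aqp9 also without control replicate 3 and Prdx6 without control replicate 1.

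The other lower peaks with the largest changes came from genes of varied roles. Scrn3, a secernin, had a pair of processed transcript peaks, both lower. The peak at chr2:73319497-73319671 averaged 30.1 ± 4.85 CPM in BDL and 131 ± 35.5 CPM in control (log2 change -2.12, SE 0.29, adjusted p = 0.00604) and passed with each library left out. The weaker one, at chr2:73320497-73320671, averaged 4.23 ± 1.35 CPM in BDL and 40.4 ± 16.5 CPM in control (log2 change -3.25, SE 0.53, adjusted p = 0.0119), and had an adjusted p of 0.0604 without BDL replicate 2. Prr16, a regulator of cell size, held 275, 253 and 220 CPM in BDL at the most read of its 3 NMD peaks, against 598, 872 and 962 CPM in control. The groups did not overlap, the log2 change was -1.70 (SE 0.21, adjusted p = 0.00442), and the call stood with each library left out. The other 2 Prr16 peaks had log2 changes of -1.31 and -1.49 and did not pass (adjusted p = 0.171 and 0.073). Ntn3, a netrin, which guides axons, averaged 12.5 ± 6.37 CPM in BDL and 75.4 ± 19.6 CPM in control (log2 change -2.60). Ccbe1, needed for lymphatic vessel growth, averaged 8.46 ± 1.32 CPM in BDL and 39.7 ± 19.2 CPM in control (log2 change -2.23). Edc3, an activator of mRNA decapping, averaged 21.6 ± 4.55 CPM in BDL and 68.2 ± 8.57 CPM in control at 1 of its 3 peaks (log2 change -1.66), and the other 2, with log2 changes of 0.81 and -0.01, did not pass (adjusted p = 0.231 and 0.994). Mtfr1, a mitochondrial fission regulator, averaged 29.7 ± 6.23 CPM in BDL and 91.9 ± 20.6 CPM in control (log2 change -1.63). These 4 had adjusted p-values between 0.0157 and 0.0299. Each lost its call without BDL replicate 2 or without BDL replicate 3, and Ccbe1 also without BDL replicate 1, control replicate 1 or control replicate 2. Edc3 and Mtfr1 lost theirs without control replicate 2 as well. The highest adjusted p of the 4 was then 0.107.

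**Figure D3:**
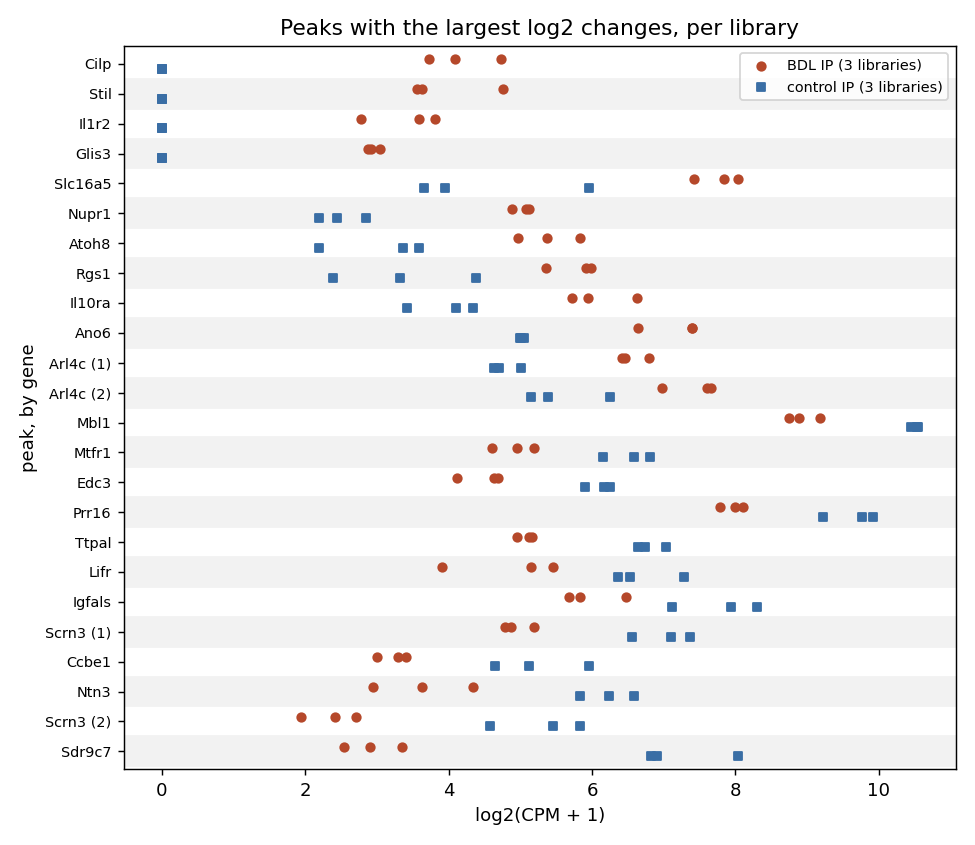
Level as log2(CPM + 1) (horizontal axis) in each of the 3 BDL and 3 control IP libraries for the 12 highest and 12 lowest log2 changes past the threshold (vertical axis, by gene; numbers in brackets tell peaks of 1 gene apart). BDL and control libraries do not overlap in any of the 24, and Cilp, Stil, Il1r2 and Glis3 have 0 reads in the control libraries.

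Peaks of the cytokine receptor genes Ifngr1, Il10ra, Il1r2 and Il4ra were higher in BDL, while the Lifr peak above was lower. Ifngr1, the ligand-binding chain of the interferon gamma receptor, had the highest level among the higher peaks. Its NMD-labelled peak at chr10:19609443-19609917 held 1950, 2080 and 2450 CPM in BDL, against 565, 659 and 897 CPM in control. All BDL libraries were above all control libraries, and the log2 change of 1.61 (SE 0.20, adjusted p = 0.00485) passed with each library left out. Il10ra, the ligand-binding chain of the interleukin 10 receptor, held 51.7, 60.7 and 97.4 CPM in BDL, against 16.2, 9.65 and 19.3 CPM in control (log2 change 2.22, SE 0.41, adjusted p = 0.0176) at 1 of its 3 peaks. The most read Il10ra peak averaged 917 CPM in BDL and 441 CPM in control and missed the threshold (log2 change 1.06, adjusted p = 0.0863), as did the least read (log2 change 2.51, adjusted p = 0.389). The call was lost without BDL replicate 2 or 3, with an adjusted p of up to 0.09. Il1r2, a decoy receptor that binds interleukin 1 without signalling, had 289, 232 and 341 reads in BDL and 0 in each control library. The BDL mean was at least 52.4-fold higher than a floor of 3 reads per control library (adjusted p = 0.0294). The call was lost without any 1 of the BDL libraries, with an adjusted p of up to 0.126. Rgs1, which quenches chemokine receptor signalling in leukocytes, averaged 53.9 ± 12.1 CPM in BDL and 11 ± 8.0 CPM in control (log2 change 2.29, SE 0.58, adjusted p = 0.0479). It passed only without control replicate 2 among the fits with a library left out, and reached an adjusted p of 0.146 in the others. A further Rgs1 peak had a log2 change of 2.26 and did not pass (adjusted p = 0.244). Il4ra, the shared receptor chain for interleukins 4 and 13, and Lair1, an inhibitory collagen receptor of leukocytes, are named after their values were seen. Il4ra averaged 330 ± 29.0 CPM in BDL and 162 ± 32.1 CPM in control (log2 change 1.02, adjusted p = 0.0214). A further Il4ra peak had a log2 change of 1.29 and did not pass. Lair1 had a pair of higher peaks, with log2 changes of 1.61 (adjusted p = 0.0125) and 1.70 (adjusted p = 0.0352), the second over a region of 26960 bases. Il4ra lost its call without BDL replicate 1, 2 or 3 or control replicate 2 (adjusted p of up to 0.1), both Lair1 peaks without BDL replicate 2 or 3, and the wider of them without any 1 of the control libraries too (adjusted p of up to 0.131). Lyn, a Src-family kinase of leukocytes, had 3 processed transcript peaks with log2 changes of 0.77, 1.36 and 1.24 that missed the threshold (adjusted p = 0.0656, 0.0621 and 0.0954).

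By words in the table's Gene Ontology column, a grouping made after the values were seen, 70 tested peaks belonged to immune and cytokine genes. Of these 8 were higher (Ifngr1, Il10ra, Il1r2, Il4ra, Cdk19, Mapk7, Tnfaip8 and Nupr1) and 3 lower (Crp, Mbl1 and Lifr). Of the 70, 15.7% passed, and their median log2 change was 0.47. Of the 908 tested peaks of any label in the same group, 76 were higher and 41 lower (12.9%), with a median of 0.21. Of 41 tested peaks of RNA processing genes 0 were higher and 3 lower by edgeR's test, namely Mettl1, Prpf38b and Edc3. Of the 366 tested RNA processing peaks of any label 1 was higher and 17 lower (4.92%). Other groups were scored too. Lipid and sterol metabolism had 2 higher and 3 lower (10.6% passed, against 14.6% for any label). Regulation of transcription had 4 and 2 (7.23%, against 5.84%), and vesicle and Golgi transport 3 and 1 (6.56%, against 7.65%). DNA repair and replication had 0 and 1 (3.85%, against 4.0%), ubiquitin 1 and 0 (3.12%, against 7.13%), and mitochondrion 0 and 1 (3.57%, against 8.74%). Macrophage and monocyte markers also had a higher summed level in BDL. Of 10 listed markers 7 had peaks, with a summed level of 4840 to 5910 CPM in BDL, against 1620 to 2610 CPM in control, and 4 of 11 tested peaks were higher and 0 lower. Adgre1, Cd68 and Ccr2 had no peak. Of 10 T cell, B cell and neutrophil markers 1 had a peak, Il2rb, with 5.1 to 11.8 CPM in BDL and 0 in control, and Ptprc and Cd3e had none. Cholangiocyte markers, 6 of 10 with peaks, summed to 1830 to 2920 CPM in BDL and 463 to 581 CPM in control, with 3 of 8 tested peaks higher and 0 lower. Stellate cell and fibroblast markers, 3 of 10 with peaks, summed to 324 to 495 CPM in BDL and 125 to 228 CPM in control, with 1 of 4 higher and 0 lower. Over all tested peaks 4.62% were higher and 4.55% lower. The part of these markers in the higher peaks was not tested.

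Other higher peaks came from genes for matrix, growth, transcription and transport. Cilp, a matrix protein of cartilage and scar tissue, had 272, 1014 and 496 reads in BDL and 0 in each control library at its peak at chr9:65279379-65279553. This was at least 94.4-fold higher against the floor (adjusted p = 0.0106), by the BDL mean here and below. A further Cilp peak had a log2 change of 3.12 and missed the threshold (adjusted p = 0.0539). Stil, which builds centrioles, had 240, 455 and 807 reads in BDL and 0 in each control library, at least 84.9-fold higher (adjusted p = 0.0157), while its neighbouring peak had reads in all 6 libraries and a log2 change of 0.14 (SE 1.0). Glis3, a zinc finger transcription factor, had 141, 261 and 225 reads in BDL and 0 in each control library, at least 35.4-fold higher (adjusted p = 0.0418), and a further Glis3 peak, with 0, 0 and 43 control reads, did not pass (adjusted p = 0.297). Without BDL replicate 2 or 3 each of these 3 calls was lost, with adjusted p-values of up to 0.083 for Cilp, 0.106 for Stil and 0.145 for Glis3, which was also lost without BDL replicate 1, control replicate 1 or control replicate 2. Atoh8, a basic helix-loop-helix factor, averaged 42.2 ± 12.9 CPM in BDL and 7.94 ± 3.9 CPM in control (log2 change 2.41, adjusted p = 0.0335), and a further Atoh8 peak had a log2 change of 0.69 (adjusted p = 0.226). Nupr1, a stress-induced chromatin protein, held 32.7, 28.4 and 33.8 CPM in BDL, against 4.44, 6.21 and 3.55 CPM in control (log2 change 2.74, SE 0.48, adjusted p = 0.0151). Both lost their call without any 1 of the BDL libraries, Atoh8 also without control replicate 2, with adjusted p-values of up to 0.115 for Atoh8 and 0.0772 for Nupr1. Cebpd, a factor of the acute phase response, is named after its values were seen. It held 727, 763 and 744 CPM in BDL, against 272, 200 and 352 CPM in control (log2 change 1.44, SE 0.22, adjusted p = 0.00851), with an adjusted p of 0.0509 without BDL replicate 2.

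Membrane transport and small GTPase genes were also represented. Slc16a5, of the monocarboxylate transporter family, held 261, 229 and 170 CPM in BDL, against 14.4, 11.6 and 61.3 CPM in control. Control replicate 3 was high among the controls but below all BDL libraries, and the log2 change was 2.92 (SE 0.63, adjusted p = 0.0303). This peak's call stood only without control replicate 3 and was lost in the other fits with a library left out, with an adjusted p of up to 0.101. The other 2 Slc16a5 peaks had log2 changes of 2.27 and 2.65 and missed the threshold (adjusted p = 0.0662 and 0.0534). Ano6, a calcium-activated lipid scramblase, had an NMD-labelled peak at chr15:95972706-95973005 that is also listed as processed transcript for an overlapping gene without a symbol, so its reads may belong to either. It held 98.8, 167 and 167 CPM in BDL, against 30.9, 32.0 and 31.3 CPM in control (log2 change 2.2, SE 0.28, adjusted p = 0.00458), and passed with each library left out. Arl4c, an Arf-like GTPase at the plasma membrane, had 3 tested peaks, of which the 2 most read passed. The peak at chr1:88700330-88700654 averaged 93.8 ± 14.1 CPM in BDL and 26.8 ± 3.97 CPM in control (log2 change 1.81, SE 0.27, adjusted p = 0.00781) and passed with each library left out. The peak at chr1:88700680-88701079 averaged 174 ± 42.1 CPM in BDL and 50.1 ± 22 CPM in control (log2 change 1.79, SE 0.35, adjusted p = 0.0232), and lost its call without BDL replicate 2 or 3 or control replicate 1 or 2, with an adjusted p of up to 0.0983. The third averaged 16.8 CPM in BDL and 3.09 CPM in control and missed the threshold (log2 change 2.45, adjusted p = 0.0914).

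Of the 10 peaks with the highest mean level, 5 passed the test. The share that passed among all peaks of like level was not computed. Besides Crp, Ifngr1 and Mbl1 these were Gtpbp2, a partner in the rescue of stalled ribosomes, and Tor1aip2, an activator of torsin ATPases. Gtpbp2 averaged 1410 ± 63.8 CPM in BDL and 930 ± 71.0 CPM in control (log2 change 0.60, adjusted p = 0.035), and Tor1aip2 725 ± 115 CPM in BDL and 1470 ± 219 CPM in control (log2 change -1.02, adjusted p = 0.0168). Leaving out 1 library raised the adjusted p to as much as 0.117 for Gtpbp2, lost in all but the fit without control replicate 3, and 0.0724 for Tor1aip2, lost without BDL replicate 2, BDL replicate 3 or control replicate 2. The other 5 did not pass. Mrpl12, of the mitochondrial ribosome, averaged 1570 ± 401 CPM in BDL and 2100 ± 110 CPM in control, and Smim20, a small protein of cytochrome oxidase assembly, 1640 ± 80.7 CPM in BDL and 1870 ± 533 CPM in control. Their groups overlapped. The sign for Smim20, a log2 change of -0.19, turned to 0.14 with library totals and to 0.05 without control replicate 2. Fam207a, Zfp324 and Spr, the last of them a reductase in tetrahydrobiopterin synthesis, had log2 changes of -0.47, -0.65 and -0.66 with adjusted p-values of 0.0971, 0.0681 and 0.0514.

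At 6 peaks, of Kantr, Mx1, Atp10d, Gbp11, Gm21981 and Pqlc2, no gene was matched to a protein-coding entry in RefSeq. A gene that was not matched at all counts here too, so a peak of this set may still belong to a coding gene. Of the 6 peaks, 0 passed edgeR's test, with 2 at an unadjusted p under 0.05. By DESeq2, Kantr alone of the 6 passed. Kantr is a long non-coding RNA on the X chromosome, and its peak lay at chrX:152298553-152298727. It held 17.6, 16.1 and 14.8 CPM in BDL, against 3.57, 1.99 and 2.99 CPM in control. The groups did not overlap, and the log2 change of 2.50 (SE 0.74) missed the threshold with an adjusted p of 0.0745. It had an adjusted p of 0.00257 by DESeq2 and of 0.0422 with library totals. Mx1, Atp10d and Gbp11 are transcribed pseudogenes in the reference strain by RefSeq. Gbp11, an interferon-induced GTPase gene, held 0.269, 4.87 and 8.55 CPM in BDL, against 34.6, 5.61 and 22.1 CPM in control, and the groups overlapped (log2 change -2.18, SE 1.16, adjusted p = 0.307).

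An antisense line was present at 18 peaks, each beside an NMD or processed transcript line of another gene, and the antisense genes had no symbol in the table. Whether the reads were counted by strand is not given in the sources used here, so reads of a gene and of its antisense partner cannot be told apart. Of 17 tested, 1 was higher and 0 were lower (5.88% passed, against 9.16% of all tested peaks). This was the peak of Slc2a1, the glucose transporter GLUT1, at chr4:119136753-119137002. It held 359, 395 and 360 CPM in BDL, against 173, 206 and 174 CPM in control (log2 change 1.01, SE 0.16, adjusted p = 0.0103), with an adjusted p of 0.057 without BDL replicate 2. Txnip, which binds thioredoxin and limits glucose uptake, held 132, 94.9 and 163 CPM in BDL, against 137, 67.8 and 84.7 CPM in control, and the groups overlapped (log2 change 0.43, adjusted p = 0.471). The 18 peaks together took 0.138 ± 0.0169% of reads in BDL and 0.0927 ± 0.011% in control. The most-read peak with antisense, NMD and processed transcript labels together, of Gal3st4 and Gm43720, held 9.11, 9.23 and 8.2 CPM in BDL, against 2.11, 7.23 and 0.789 CPM in control (adjusted p = 0.518). The most-read peak annotated to 2 named genes with NMD and processed transcript labels, of Rab43 and Gm45140, averaged 166 ± 25.5 CPM in BDL and 236 ± 2.29 CPM in control (log2 change -0.51, adjusted p = 0.124).

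Several peaks of the same gene could be set side by side in many genes. Of 93 genes with 2 or more tested peaks with no mRNA label, 62 had log2 changes of a single sign, and the median range within a gene was 0.68. A peak passed in 24 of them, and the share over all genes with several tested peaks was not computed. A gene with several peaks has several chances to pass, so this count cannot be set against the 9.16% of all tested peaks. In 4 genes (Arl4c, Lair1, Ppp1r15b and Scrn3) 2 peaks passed, and in 0 genes did peaks pass in opposite directions. Ppp1r15b, which guides a phosphatase to the translation factor eIF2 alpha, had 4 peaks over a listed span of 8641 bases. Along the gene their log2 changes were -0.43, -0.74, -1.02 and -1.10, of which the second (adjusted p = 0.0363) and the fourth (adjusted p = 0.00715) passed. The second lost its call in all fits with a library left out but that without control replicate 1, with an adjusted p of up to 0.132, and the fourth passed in all 6. Peaks of 1 gene share its transcripts and are not independent.

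In 52 genes both a peak with no mRNA label and a peak with an mRNA label were tested. The mean log2 changes had the same sign in 30 of them. Across the 51 with reads in both groups at each tested peak, which are not replicates, Pearson's r was 0.382 and Spearman's rho 0.381. With Epn3, whose mRNA-labelled peak had 0 control reads and so no fitted change of definite size, they were 0.503 and 0.414. The peak with no mRNA label was the more read in 26. Both kinds passed in 3 genes, all in the same direction. Amacr had log2 changes of -1.16 and -0.96, and Saysd1 of -1.25 and -1.10. In Atoh8 the higher peak above stood beside an mRNA-labelled peak with a log2 change of 1.42 (adjusted p = 0.0214). In Tor1aip2 the peak with no mRNA label was lower, at -1.02, and its 3 mRNA-labelled peaks had log2 changes of -0.23, 0.87 and -0.27 with adjusted p-values between 0.288 and 0.633. The difference between the peaks of a gene was not tested.

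**Figure D4:**
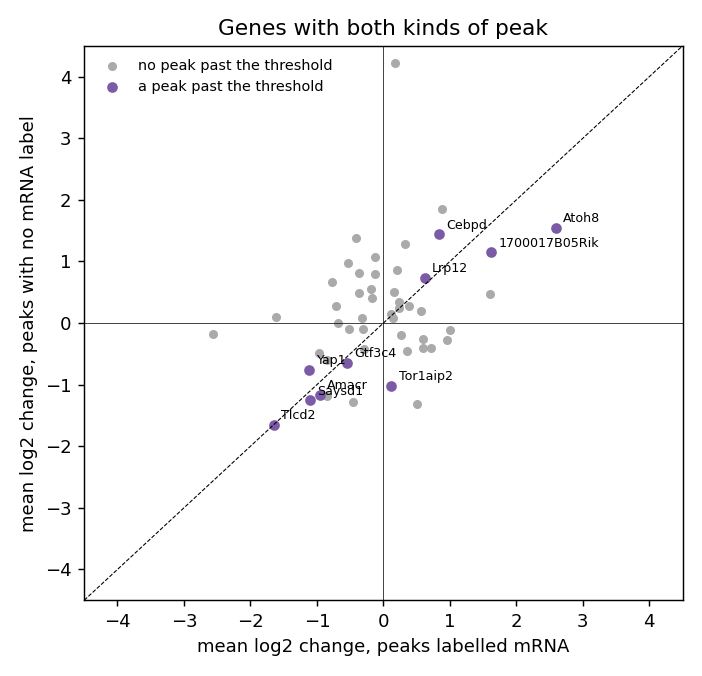
Mean log2 change of BDL over control at peaks with no mRNA label (vertical axis) against that at mRNA-labelled peaks of the same gene (horizontal axis), 1 point per gene for 51 of 52 genes. The dashed line marks equal change. Tor1aip2 lies well below it, as do Tmem26, Clmn and Insr, which are not labelled. Epn3, with 0 control reads at its mRNA-labelled peak, is not drawn.

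The 661 peaks together held a smaller share of IP reads in BDL. The share was 8.31%, 8.89% and 8.78% in BDL libraries, against 9.8%, 9.72% and 10.2% in control libraries. The means were 8.66 ± 0.306% in BDL and 9.92 ± 0.279% in control, and the groups did not overlap. An exact two-sided permutation test gave p = 0.1, the smallest that 3 against 3 allows. The direction rested on Crp, whose peaks alone held 2.06 ± 0.0795% in BDL and 4.44 ± 0.172% in control. Without the Crp peaks the share was 6.73 ± 0.258% in BDL and 5.73 ± 0.25% in control, a difference of 0.998 percentage points the other way, with the same p. Here the Crp reads were left out of the library total too, so the shares with and without Crp do not add up. NMD peaks held 3.69 ± 0.135% in BDL and 3.0 ± 0.151% in control, and processed transcript peaks, Crp among them, 4.76 ± 0.175% in BDL and 6.77 ± 0.177% in control.

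**Figure D5:**
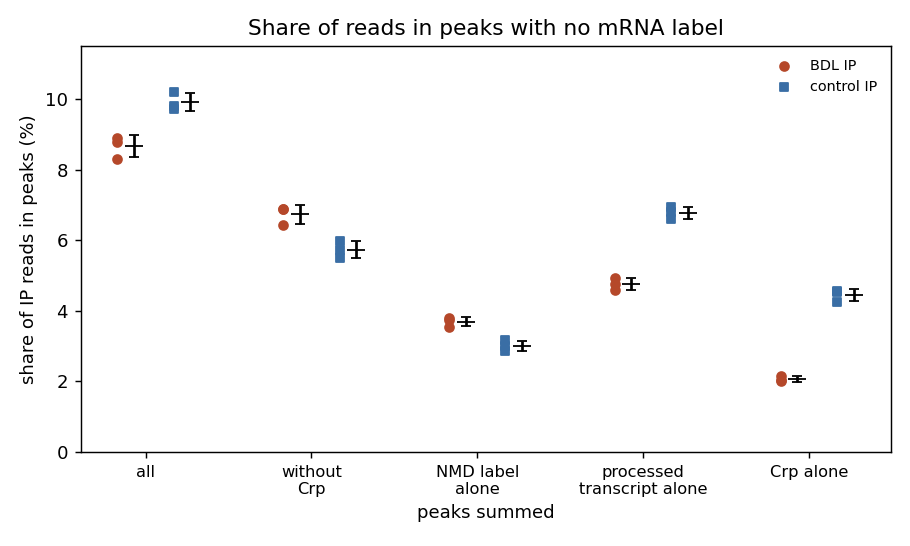
Share of IP reads in peaks (vertical axis, percent) for all 661 peaks, without Crp, by label and for Crp alone (horizontal axis); points are libraries, and black marks the mean ± SD of 3. BDL is below control for all peaks, at 8.66% and 9.92%, and above it without Crp, at 6.73% and 5.73%. Shares without Crp are of the reads outside the Crp peaks, and the others are of all reads in peaks.

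Of the 661 peaks, 30 were not tested, and 29 of these were 75 bases wide or less. Among the 30, 16 had no reads in any library, and the other 14 reached at most 243 reads in 1 library. Reads in BDL with none in control were found at 15 peaks, 7 of them with reads in all 3 BDL libraries. Those were the peaks of Cilp, Stil, Il1r2, Glis3, Socs2, Slx4 and Cryz, of which the last 3 missed the threshold with adjusted p-values of 0.0621, 0.0595 and 0.0513. The reverse held at 2 peaks, of Akap1 and Cebpz, with 16 and 46 reads in 1 control library each. The same counts over all 7460 peaks were not computed. Of all peaks, 93.9% to 94.3% had reads in a given BDL library, against 87.2% to 90.3% in a given control library. Each control library also held fewer reads in peaks than each BDL library. In each library more of the 661 peaks had 0 reads than had 1 to 20, from 29 against 4 in BDL replicate 3 to 68 against 12 in control replicate 1, so the zeros may not all be counting zeros, and the fold bounds hold only where they are.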

How the data were processed

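Per the file headers, the deposited table holds raw read counts of 6 m6A-IP libraries in merged peaks, and RPM values, a score that the authors derived and that equals each count over the library's total in distinct peaks, scaled by a constant. Per the submitters' processing notes, bcl2fastq 2.17, fastp, Bowtie2 2.2.8 and HISAT2 were used, in roles not given. The sources used here name no peak caller, read counter, strand setting, genome build or annotation. Coordinates count from 1 in the table's unnamed build, and promoters are from RefSeq. The 6 input samples were not analysed here, and 0 other columns of samples were left unused.

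Peaks listed for several genes entered once. Libraries held 20540863, 35691860 and 26690519 reads in peaks in BDL and 15254737, 19251404 and 19378332 in control. All 7460 peaks were filtered with filterByExpr, scaled with TMM and tested by robust quasi-likelihood F-tests of edgeR, adjusted after Benjamini and Hochberg (R 4.3.3, edgeR 4.0.16). The SE is the log2 change over the square root of F. Simulated counts had 100 peaks changed by a log2 of 2, 100 changed by 1 and 6802 unchanged. In that order, 38%, 3% and 0.0294% were called. The share of changed peaks was set in the simulation, so these rates need not hold for the data. Groups with 0 reads were set to 3 reads per library for fold bounds, which cover counting error of the zeros only. The bounds use the mean of the other group and leave out the spread of its libraries. Alternatives were DESeq2 1.42.0, its size factors, library totals, other filters, each library left out, a replicate block and sums per gene.

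Named peaks were the 12 highest and 12 lowest log2 changes past the threshold without overlap, the 10 with the highest level, and the most-read of each label. Genes of the non-coding lists had no such peak. Members, lists and marker lists were chosen with earlier results of these data known. Endothelial markers, 5 of 8 with peaks, summed to 429 to 643 CPM in BDL and 405 to 558 CPM in control.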

Additional observations from a re-analysis of the deposited data

How the results depend on the processing

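Of the 661 peaks, 59 passed with edgeR, against 110 with DESeq2 and 31 with the replicate number as a block. Over all peaks, 649 passed, against 1169 with DESeq2 and 287 with the block. Leaving out 1 library gave 13 to 55 calls among the 661 and 155 to 611 among all, with the fewest without BDL replicate 2. Same-numbered libraries deviated together with correlations of only 0.0295, 0.00993 and 0.00915. Values this small show no pairing by number, and they cannot exclude one. Of the 24 peaks named for the largest changes, 13 passed with the block and 8 to 22 with a library left out. Among the 661 and among all peaks, the calls were 61 and 673 with DESeq2's size factors, 59 and 606 with no removal of low peaks, 72 and 747 with a stricter filter of 50 reads, 46 and 553 with a log2 change of at least 1, and 73 and 719 after leaving out peaks of 75 bases or less. Sums per gene gave 73 calls of 495, against 733 of 5061. Library totals gave 78 and 781 calls, 61 higher and 17 lower among the 661. The difference in read share was -1.26 percentage points, and -1.37 to -1.09 with a library left out. It was 0.766 without the 5 most-read peaks and, in an alternative chosen after seeing the data, 0.998 without Crp. For these values the reads of the peaks left out were taken from the total too. Of 493 repeats over 38 named peaks, 405 kept direction and side of the threshold, 80 fell short of it, 6 newly passed and 2 reversed, both of Smim20 (0.14 with library totals, and -0.37 to 0.05 with a control library left out). The cause of these differences was not tested. The lowest mean level among the 59 calls was 3.36 CPM; whether depth limits calls was not tested.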
